A study of Mus musculus with 6 samples.

Results

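A set of 9 tight junction genes, *Cldn2*, *Cldn3*, *Cldn4*, *Cldn7*, *Cldn15*, *Ocln*, *Tjp1*, *Tjp3* and *Cgn*, were followed through single-nucleus RNA-seq of mouse intestinal organoids. They were chosen by name, and all 9 were found among the 31319 genes of the deposited matrices. The organoids came from the jejunum of C57BL/6 mice aged 8 to 12 weeks and were grown from freshly passaged crypts in medium conditioned by mouse embryonic fibroblasts. The fibroblasts were either quiescent, through serum deprivation (QCM, 3 samples), or senescent, through X-rays or doxorubicin (SCM, 3 samples), and which of these agents was used for the sequenced samples was not given in the sources used here. All 6 samples therefore received fibroblast medium, and no sample without it was analysed here. The labels do not say from which mouse each sample came, so p-values measure the spread between these samples, which may be technical.

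Tight junctions seal the space between epithelial cells at their apical border. Claudins span the membrane and set what passes through the seal: Cldn2 and Cldn15 form pores for small cations in the intestine, while Cldn3, Cldn4 and Cldn7 are counted among the sealing or scaffold-associated claudins. Occludin (*Ocln*) is a further membrane protein of the seal, and ZO-1 (*Tjp1*), ZO-3 (*Tjp3*) and cingulin (*Cgn*) bind the junction to actin from the cytoplasmic side. Nuclei report on transcripts of these genes, not on the proteins at the junction.

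The data comprised 38154 nuclei in 15 deposited clusters, with 430 nuclei and 4071926 unique molecular identifiers (UMIs, counted molecules) in SCM replicate 1, and 3791 to 10833 nuclei with 19925280 to 41035733 UMIs in each other sample. All 9 epithelial markers exceeded 1 count per 1000000 UMIs (CPM) in all samples. Of 10 mesenchymal, 6 endothelial and 6 immune markers, 0, 2 and 0 did so, and the summed mesenchymal level was 4.70 to 11.2 CPM in QCM and 4.91 to 39.9 in SCM. QCM replicate 1 and SCM replicate 1 shared 175 nucleus barcodes, equal to 40.7% of the nuclei of SCM replicate 1, against at most 36 for any other pair of libraries. Transcripts of ribosomal protein genes (Rpl and Rps) took 14.2%, 4.96% and 10.4% of UMIs in QCM replicates 1, 2 and 3, and 4.22%, 2.64% and 7.30% in SCM.

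*Cldn3* and *Cldn4* are neighbours on chromosome 5 (GRCm38), 39279 bases apart and read in opposite directions away from each other, with no other annotated gene between them. *Cldn3* (ENSMUSG00000070473, chr5:134986214-134987472, plus strand) and *Cldn4* (ENSMUSG00000047501, chr5:134945119-134946934, minus strand) each have 1 exon. *Cldn15* (ENSMUSG00000001739, chr5:136966616-136975858, plus strand) has 6 exons in its principal transcript. These 3 genes were the members whose samples did not overlap between media, *Cldn3* and *Cldn15* in one direction and *Cldn4* in the other, and the bases before the starts that RefSeq gives them are shown for that reason. The RefSeq start of *Cldn15*, at base 136967869, lies inside the gene as bounded above from GENCODE, so its sequence does too. The sequences are from RefSeq (GRCm38.p6), written 5′ to 3′ on the strand of the gene, as chr5:134985964-134986213 for *Cldn3*, chr5:134946935-134947184 for *Cldn4* and chr5:136967619-136967843 for *Cldn15*, the last one ending where an annotated exon begins. Capitals mark matches on either strand to 5 motifs. The AP-1 motif was written as TGANTCA. The TEAD motif was written as GGAATG. The GC box was written as GGGCGG, the TATA box was written as TATAAA, and the E-box was written as CAGCTG.
Cldn3: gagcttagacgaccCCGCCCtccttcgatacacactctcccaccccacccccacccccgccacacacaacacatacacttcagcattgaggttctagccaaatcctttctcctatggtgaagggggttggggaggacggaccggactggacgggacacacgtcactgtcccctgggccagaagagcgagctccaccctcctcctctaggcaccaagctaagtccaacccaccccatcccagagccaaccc
Cldn4: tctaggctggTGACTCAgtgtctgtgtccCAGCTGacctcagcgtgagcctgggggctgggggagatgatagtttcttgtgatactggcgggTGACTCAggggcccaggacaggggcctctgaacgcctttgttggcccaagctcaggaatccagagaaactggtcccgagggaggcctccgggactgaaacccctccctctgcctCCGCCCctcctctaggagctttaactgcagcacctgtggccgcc
Cldn15: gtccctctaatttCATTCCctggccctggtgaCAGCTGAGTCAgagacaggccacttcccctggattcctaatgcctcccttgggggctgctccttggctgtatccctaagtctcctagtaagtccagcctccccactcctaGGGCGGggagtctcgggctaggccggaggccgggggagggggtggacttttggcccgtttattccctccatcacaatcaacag

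The *Cldn4* sequence held the AP-1 letters at 2 places, beginning 240 and 158 bases before the start. Of 32851 RefSeq promoter windows of 250 bases, 6.75% held these letters at least once and 0.338% at 2 or more places. The *Cldn15* sequence held them once, overlapping the E-box letters, and the *Cldn3* sequence did not hold them. A GC box stood in all 3 sequences and in 32.7% of all windows. The TEAD letters stood only in that of *Cldn15* among the 3, and in 12.6% of all windows. No TATA box letters were in these 3 sequences (12.4% of all windows), and the E-box letters (13.0% of all windows) were in those of *Cldn4* and *Cldn15*. These are matches of letters and do not show that a factor binds there.

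To ask whether the medium changed the level of these genes, UMIs were summed over all nuclei of each sample and compared with edgeR's quasi-likelihood test. *Cldn3* and the pore-forming *Cldn15* were lower in each SCM sample than in each QCM sample, *Cldn4* was higher, and the other 6 genes overlapped between media. No member passed the test after adjustment over all 19046 genes, and neither did any other gene (0%). At an unadjusted p under 0.05, *Cldn3* and *Cldn15* were among 3.08% of genes lower in SCM and *Cldn4* among 1.46% higher, 866 genes or 4.55% in all. DESeq2 called 21 of 16078 genes (0.131%), none of them a member. The 3 members that did not overlap between media stood against 7.08% of all genes tested.

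*Cldn3* was at 281, 169 and 159 CPM in QCM replicates 1, 2 and 3, and at 83.3, 90.9 and 135 in SCM replicates 1, 2 and 3. The highest SCM sample lay below the lowest QCM sample, as was the case for 2.09% of all genes tested. The means were 203 ± 68.0 in QCM and 103 ± 27.9 in SCM (SD, n = 3 each), and the log2 ratio of SCM to QCM in edgeR was -1.18 ± 0.36 (SE; adjusted p = 0.927, unadjusted p = 0.0119). DESeq2 gave an adjusted p of 0.329. A two-sided exact permutation test of the 3 against 3 samples gave p = 0.1, the smallest value this design allows. The size of the difference leaned on QCM replicate 1, without which the log2 ratio was -0.70, and it was -0.57 in replicates 2 and 3 alone.

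*Cldn15* was at 95.8, 90.3 and 105 CPM in QCM and at 43.7, 68.5 and 71.7 in SCM. Here, too, all SCM samples lay below all QCM samples. The log2 ratio was -0.82 ± 0.24 (SE; edgeR adjusted p = 0.927, DESeq2 adjusted p = 0.450), and the exact permutation test gave p = 0.1. In replicates 2 and 3 alone it was -0.53.

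*Cldn4* rested on the fewest UMIs, 4371 over all samples, and showed the opposite direction. It was at 27.7, 13.1 and 28.6 CPM in QCM and at 66.1, 59.4 and 31.4 in SCM. All SCM samples lay above all QCM samples, as for 4.99% of all genes tested, but SCM replicate 3 exceeded QCM replicate 3 by little. This was judged on CPM, while the log2 ratios come from a fit with a further scaling between samples (TMM). With library size alone in place of TMM, the log2 ratio was 1.17. Whether the samples also stay apart after TMM scaling was not tested. The log2 ratio was 0.95 ± 0.40 (SE; edgeR adjusted p = 0.927, DESeq2 adjusted p = 0.546), and the exact permutation test gave p = 0.1. Without QCM replicate 2, the lowest sample, the log2 ratio was 0.63. Of the 269 *Cldn4* UMIs of SCM replicate 1, 152 came from 7 nuclei of the deposited cluster 14, and 67 from 1 of them, which held 272203 UMIs of all genes. Without the nuclei of cluster 14, an alternative chosen after the data were seen, that sample was at 42.4 CPM and the log2 ratio was 0.69.

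The *Cldn4* difference was not seen without the nuclei with the most UMIs. When the 6% of nuclei with the most UMIs were left out of each sample, the log2 ratio was 0.07 and the levels were 26.7, 10.4 and 24.6 CPM in QCM and 21.6, 32.5 and 24.5 in SCM, which overlapped. These nuclei held 25.2%, 39.8% and 31.4% of the *Cldn4* UMIs in QCM replicates 1, 2 and 3, and 83.6%, 64.4% and 39.1% in SCM. They held 20.2% to 24.1% of all UMIs in QCM, but 49.97%, 35.0% and 22.0% in SCM. The part of doublets or of depth in this difference was not tested. By contrast, *Cldn3* and *Cldn15* kept log2 ratios of -1.39 and -0.88 without these nuclei.

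*Cldn7*, measured by 79734 UMIs over all samples, was at 882, 371 and 642 CPM in QCM and at 552, 402 and 416 in SCM. The media overlapped, since QCM replicate 2 was the lowest sample of all, and the log2 ratio was -0.69 ± 0.39 (SE; edgeR adjusted p = 0.927). Without QCM replicate 1, the highest sample, it was -0.21. *Cldn2*, the other pore-forming claudin, was at 75.2, 33.6 and 52.9 in QCM and at 77.4, 58.0 and 58.5 in SCM. Its log2 ratio of 0.04 ± 0.35 (SE; edgeR adjusted p = 0.994) left a wide range of differences possible, because the QCM samples alone spanned more than the distance between media.

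Occludin and the plaque genes had log2 ratios between -0.09 and 0.30. *Tjp1* was at 76.9, 135 and 108 CPM in QCM and at 136, 166 and 132 in SCM, with a log2 ratio of 0.30 ± 0.19 (SE; edgeR adjusted p = 0.929). *Ocln* was at 116, 155 and 130 in QCM and 192, 162 and 141 in SCM (log2 ratio 0.14 ± 0.17, SE). *Tjp3* and *Cgn* differed least: their log2 ratios were -0.09 ± 0.17 and -0.03 ± 0.15 (SE), with edgeR adjusted p-values of 0.952 and 0.987. All 4 genes overlapped between media.

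**Figure D1:**
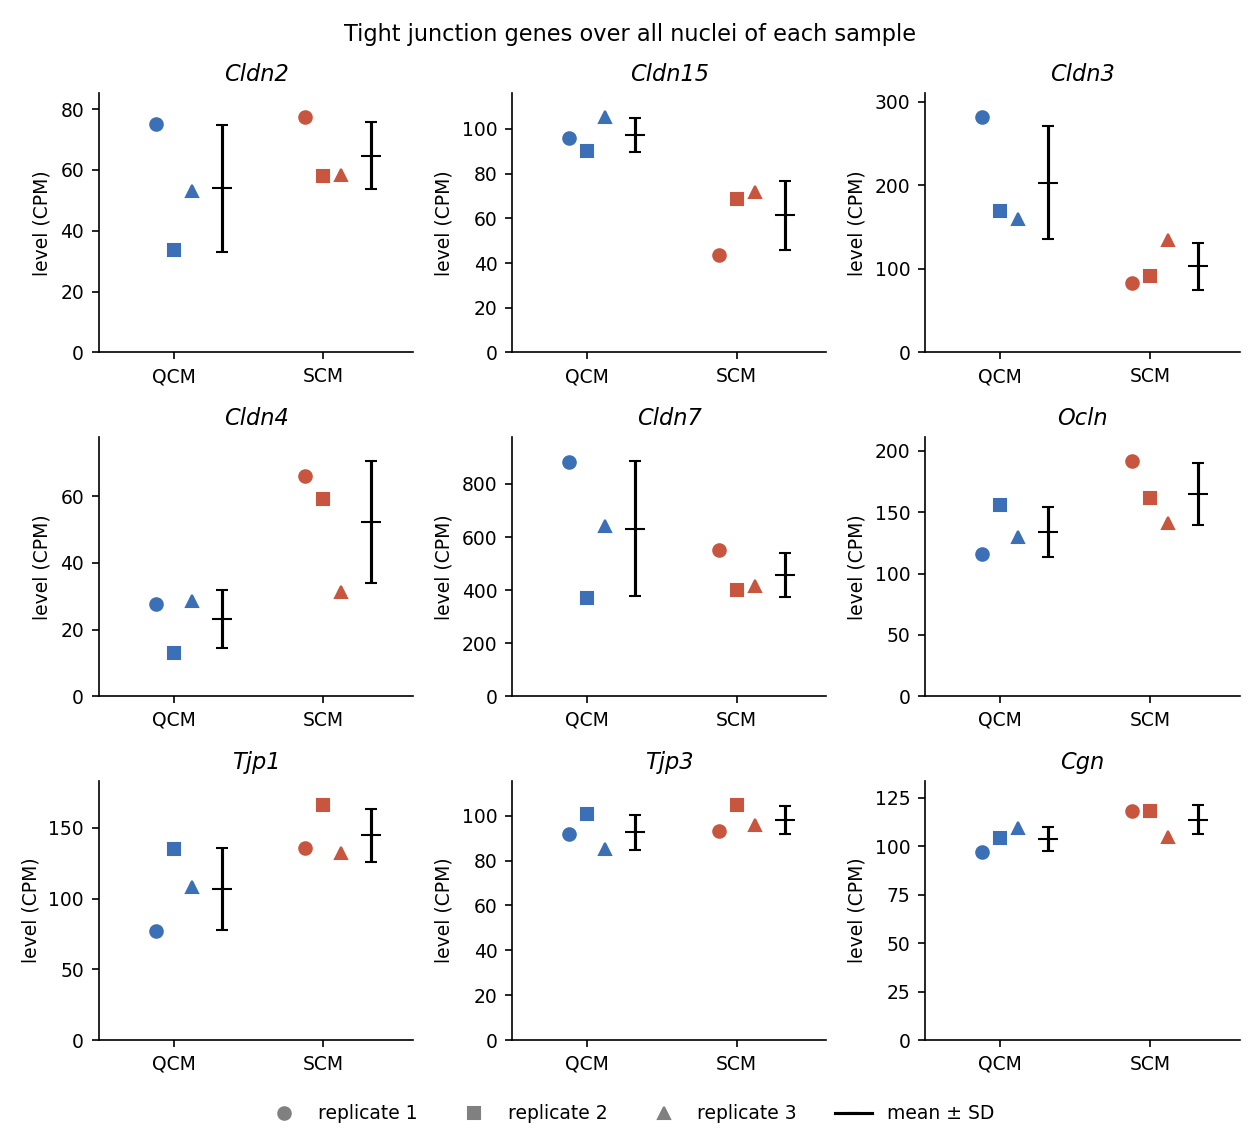
Level of each of the 9 genes in each sample, in CPM over all nuclei (y axis, from 0), for QCM (blue) and SCM (red), with the mean and SD of 3 samples in black. *Cldn3* and *Cldn15* have all SCM samples below all QCM samples, *Cldn4* has them above, and the other 6 genes overlap.

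The libraries also differed in RNA composition. The share of ribosomal protein transcripts given above overlapped between media, with SCM replicate 3 above QCM replicate 2. For each replicate number, however, the share was lower in SCM than in QCM. In length, *Cldn3*, *Cldn4*, *Cldn7*, *Cldn15* and *Cldn2* span 1259, 1816, 3107, 9243 and 10559 bases of the genome, and *Tjp3*, *Cgn*, *Ocln* and *Tjp1* span 18375, 26424, 56212 and 231617 bases. Over all genes tested, the median log2 ratio was -0.08 for 4493 genes under 5 kb, -0.06 for 9855 genes of 5 to 50 kb, and 0.13 for 4653 genes over 50 kb. A lower estimate in SCM was found for 56.4% of the genes under 5 kb and for 32.8% of those over 50 kb. Among the members under 5 kb, *Cldn3* and *Cldn7* had a lower estimate and *Cldn4* a higher one. No fit adjusted for gene length. The share of Rpl and Rps transcripts entered the fit as a covariate in an alternative chosen after the data were seen. With it, the log2 ratio of *Cldn3* was -0.52, that of *Cldn15* -0.55, that of *Cldn7* 0.20, that of *Cldn4* 1.54 and that of *Cldn2* 0.86. Those of *Ocln*, *Tjp1*, *Tjp3* and *Cgn* were 0.0703, 0.0695, 0.0032 and 0.0665, and none of the 9 was called. The part of RNA composition in the member differences was not tested further.

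**Figure D2:**
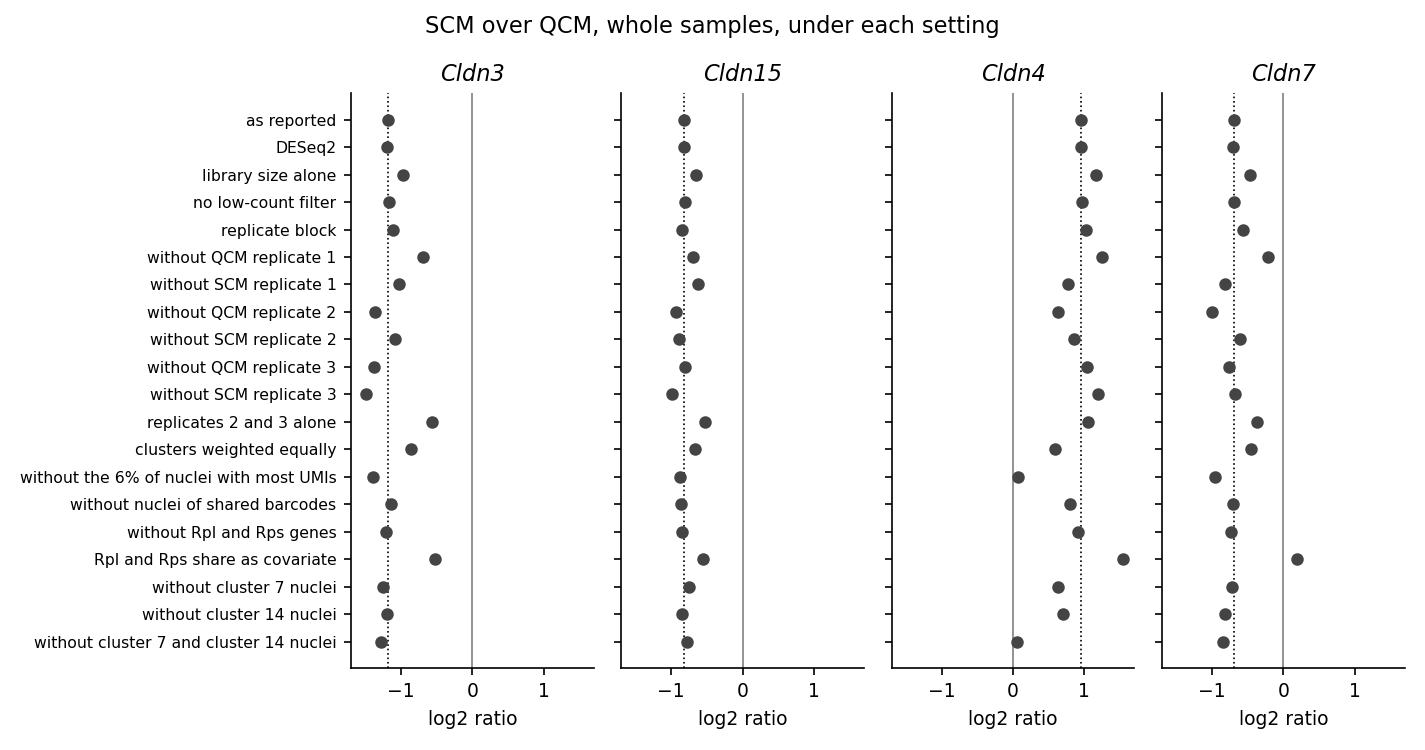
Log2 ratio of SCM over QCM over whole samples (x axis) for *Cldn3*, *Cldn15*, *Cldn4* and *Cldn7* under each processing setting (y axis); the dotted line marks the value as reported and the grey line marks 0. *Cldn3* and *Cldn15* stay below 0 in all settings, *Cldn4* lies at 0.07 without the 6% of nuclei with the most UMIs and at 0.057 without those of clusters 7 and 14, and *Cldn7* is above 0 when the share of Rpl and Rps genes is a covariate.

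To see where along the epithelium each gene was transcribed, levels were computed per sample and deposited cluster, and a sample entered where the cluster held 10 or more of its nuclei. The clusters carry numbers only. By marker genes, cluster 6 was goblet-like, with 8 goblet and 4 Paneth cell markers at least 2-fold higher than elsewhere, cluster 7 fetal-like with 7 markers, cluster 8 enterocyte-like with 9, clusters 9 and 10 enteroendocrine-like with 11 and 6, and cluster 11 tuft-like with 6. The others stayed unnamed, including cluster 1, where markers of enterocytes and Paneth cells were both among the leading genes. Clusters 13 and 14 had too few samples for the comparison of media. Because the authors' clusters were made from the same nuclei, levels between clusters are given as a description, without a test.

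*Cldn4* differed most between clusters. It was at 216 ± 121 CPM (SD, n = 6) in the fetal-like cluster 7 and at 33.3 ± 14.05 in cluster 1, the next in order. The level in cluster 7 was 8.57 times the median of the 13 clusters with enough samples, and 16.0 times that of cluster 0, the lowest. This step from cluster 7 to cluster 1 was the only place, among all 9 genes, where neighbours in the order differed by more than the larger of their SDs. The other 11 neighbouring pairs of *Cldn4* lay within that spread. SCM replicate 1 had too few nuclei in clusters 9 to 12, so that these means rest on 5 samples and the others on 6. Over the same 5 samples in every cluster, the lowest cluster of *Cldn4* was 12 in place of 0, the lowest of *Cldn15* was 9 in place of 7, that of *Cldn3* was 9 in place of 2, and the highest of *Tjp3* was 8 in place of 2, while the other ends of the order were in the same clusters for all 9 genes.

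Cluster 7 held the highest *Cldn4* level in 6 of 6 samples. The levels there were 150, 151 and 175 CPM in QCM and 456, 222 and 140 in SCM, and SCM replicate 1 rested on 17 nuclei and 70 *Cldn4* UMIs. In QCM replicate 1, 105 of the 217 *Cldn4* UMIs of the cluster came from 1 nucleus, which held 111511 UMIs of all genes. The highest nucleus held 25 of 104 and 18 of 133 in QCM replicates 2 and 3. It held 101 of 754 and 29 of 298 in SCM replicates 2 and 3. The media overlapped within the cluster. Over all other nuclei of the same samples, *Cldn4* was at 23.3, 9.11 and 22.8 in QCM and at 50.8, 27.6 and 22.0 in SCM. Of the 50.8 in SCM replicate 1, most came from the 7 nuclei of cluster 14. With the nuclei of both clusters left out, the levels were 24.2, 9.38 and 22.8 in QCM and 18.0, 27.9 and 22.1 in SCM, which overlapped, and the log2 ratio was 0.057. Cluster 7 supplied 19.1% to 32.6% of all *Cldn4* UMIs in QCM samples and 26.0% to 61.1% in SCM samples, while it made up 2.84% to 3.82% of all UMIs in QCM and 3.77% to 16.4% in SCM. The latter share was highest in SCM replicate 2, where 4.06% of the nuclei were in cluster 7. Without the nuclei of cluster 7, another such alternative, the log2 ratio between media for *Cldn4* over whole samples was 0.62, with an unadjusted p of 0.210 in edgeR.

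**Figure D3:**
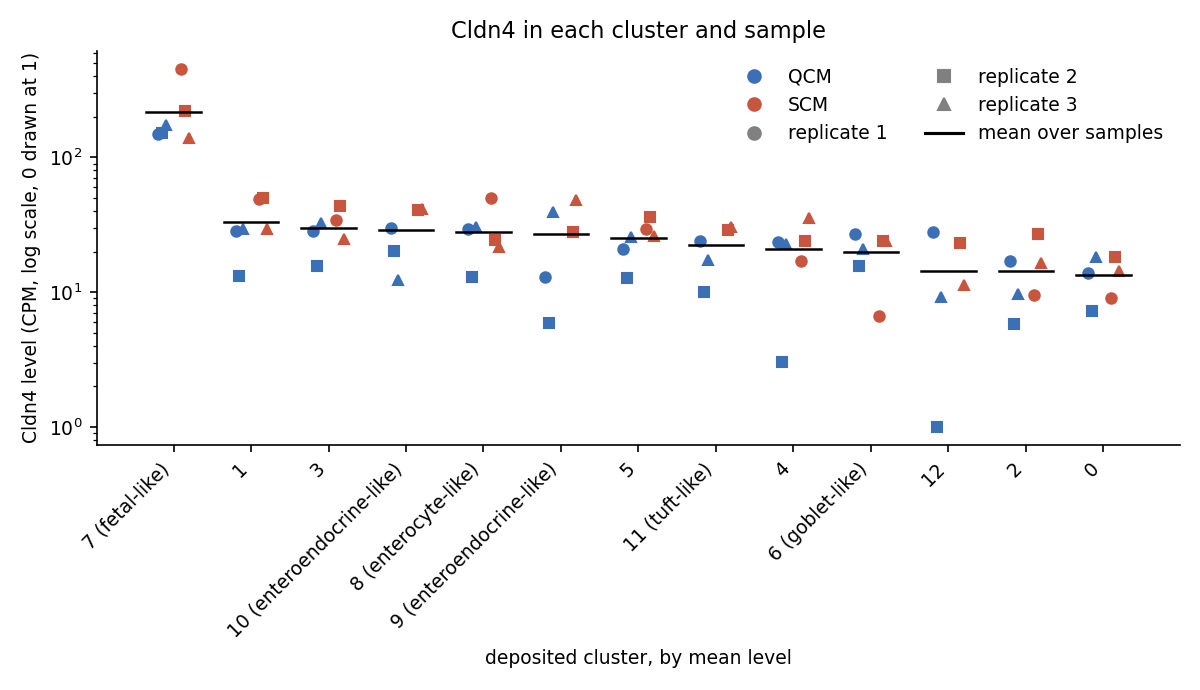
*Cldn4* level in CPM (y axis, log scale) in each sample with at least 10 nuclei, for 13 clusters in the order of their mean (x axis), with QCM in blue, SCM in red and the mean over samples as a black line. All 6 samples of cluster 7 lie between 140 and 456, while the mean of the next cluster is 33.3.

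The other 8 genes were spread far more evenly, with a highest mean of 1.26 to 1.95 times the lowest, and all 12 neighbouring pairs of each within the spread over samples. Since samples also differed in overall level, each cluster was set against the median of clusters in the same sample. On this scale *Cldn3*, *Ocln*, *Tjp1* and *Cgn* were above the median in cluster 7 in 6 of 6 samples, by a log2 difference of 0.62 ± 0.29, 0.37 ± 0.21, 0.68 ± 0.16 and 0.60 ± 0.36 (SD). The fetal-like nuclei thus had higher transcript levels than the median cluster for a sealing claudin, occludin and 2 plaque genes, beside *Cldn4*. Cluster 7 was the highest cluster in 2 of 6 samples for *Cldn3*, 3 for *Ocln*, 5 for *Tjp1* and 3 for *Cgn*. Being above the median in every sample was not limited to cluster 7. *Cldn3* and *Cldn4* were also above it in cluster 1 in 6 of 6 samples, by 0.44 ± 0.17 and 0.36 ± 0.33 (SD).

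*Cldn15* went the other way. It was below the median of clusters in cluster 7 in 6 of 6 samples, by a log2 difference of -0.49 ± 0.43 (SD), with a mean there of 59.3 ± 28.4 CPM. *Cldn15* was also below the median in cluster 9 in 5 of 5 samples, by -0.45 ± 0.31 (SD). In cluster 7 its mean was 83.1 CPM in QCM, where clusters 9 and 11 were lower at 77.0 and 78.9, and 35.5 in SCM. Its highest mean was in the enterocyte-like cluster 8, at 92.1 ± 32.5, above the own-sample median in 5 of 6 samples, but 1 of 6 samples had its highest level there. *Cldn2* had its lowest mean in that same cluster 8, at 36.5 ± 14.7, below the own-sample median in 6 of 6 samples and by a log2 difference of -0.59 ± 0.26 (SD). The highest mean of *Cldn2*, 71.3 ± 35.3, was in cluster 7, but only 2 of 6 samples had their highest level there.

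*Cldn7* was highest in cluster 1, at 652 ± 237 CPM, which lay above the own-sample median in 6 of 6 samples, and lowest in the enteroendocrine-like cluster 9, at 439 ± 151. *Cgn* and *Tjp1* were both lowest in cluster 1, at 89.6 ± 11.6 and 100.1 ± 33.8, and both second in cluster 8, at 146 ± 32.3 and 160 ± 74.8. *Ocln* ranged from 196 ± 26.0 in cluster 7 to 125 ± 31.2 in cluster 1. *Tjp3* was the most even, with means between 79.3 ± 6.34 in cluster 10 and 99.8 ± 10.6 in cluster 2. In cluster 13, *Cldn4* was at 17.5 ± 9.93 (n = 4). In cluster 14, whose nuclei held 13.4 times the median UMIs of their samples, it was at 9.97 ± 8.76 in the 3 samples with enough nuclei, but at 116 in the 7 nuclei of SCM replicate 1 and at 5.74 in the 7 of SCM replicate 3.

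**Figure D4:**
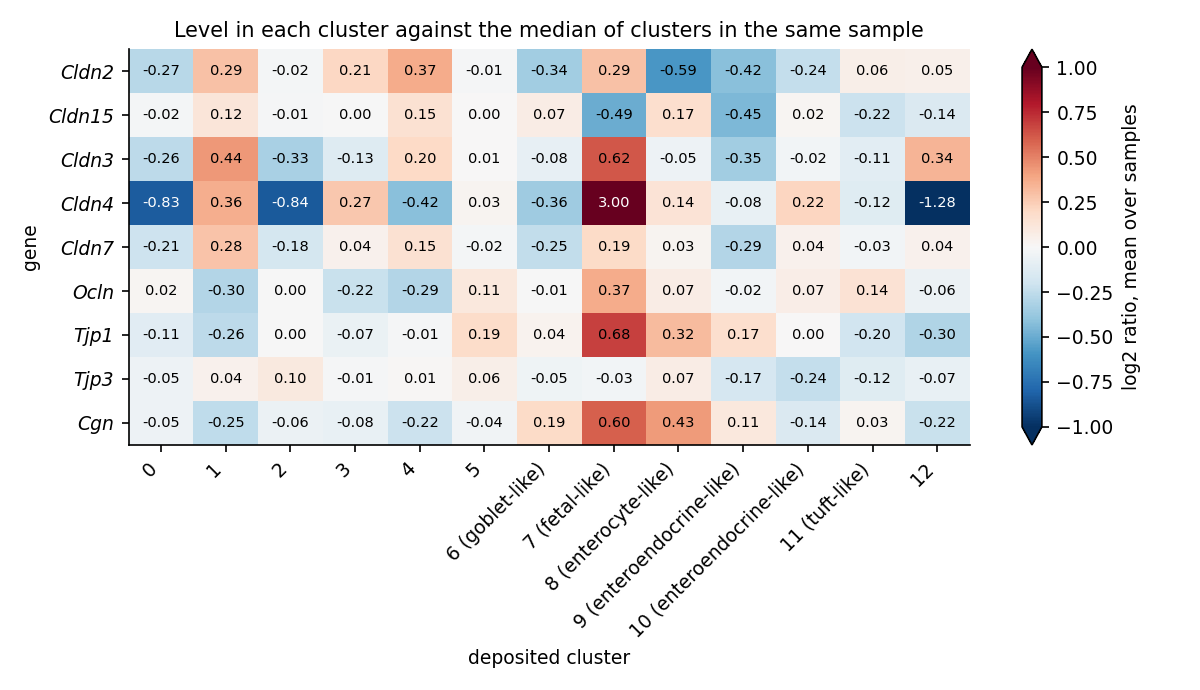
Log2 ratio of the level in each cluster to the median of clusters in the same sample, averaged over samples, for the 9 genes (rows) and 13 clusters (columns); the colour scale ends at 1, and *Cldn4* in cluster 7 lies beyond it at 3.00. Cluster 7 is above the median for *Cldn3*, *Ocln*, *Tjp1* and *Cgn* and below it for *Cldn15*, while cluster 8 is lowest for *Cldn2*.

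Similarity over the 13 cluster means, as Pearson's r of log2 levels with a pseudocount of 1, is given as a description, since clusters share libraries and depth and 10248 genes were compared. Among the members, *Cldn3* and *Cldn7* were most alike (r = 0.88), followed by *Tjp1* and *Cgn* (r = 0.87). *Cldn15* and *Cldn4* had r = -0.55. The genes most like *Cldn4* were *Lmna*, which encodes lamin A/C of the nuclear lamina (r = 0.98), and *Anxa3*, an annexin that was also on the list of fetal markers (r = 0.97). For *Cldn3* the most alike was *Vamp8*. For *Cldn7* they were *Gsto1* and *S100g*, for *Tjp1* *Wwc1* and *Ccdc68*, and for *Cgn* *Slc35f5* and *Gm37376*. For *Ocln* they were *Top3b* and *Ppp2ca*, for *Cldn2* *Otub1* and *Aimp2*, for *Cldn15* *Mtch2* and *Tspan3*, and for *Tjp3* *Mtmr11* and *Gm15884*, with r between 0.82 and 0.96 over these 8 members.

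To learn whether the differences between media lay in particular clusters, the test was repeated within each of the 13 clusters. *Cldn3*, *Cldn15* and *Cldn7* had a lower estimate in SCM in 13 of 13 clusters, and *Tjp1* a higher one in 13 of 13, but in 10 of 13 without QCM replicate 1 and in 6 of 9 without SCM replicate 2. *Cldn4* had a higher estimate in 10 of the 11 clusters where it was tested, but in 6 of 11 without QCM replicate 2, and its median log2 ratio over clusters was then 0.048 in place of 0.41. Of 3774 genes tested in every cluster, 20.6% were lower in each and 15.4% higher in each, so that a common sign over clusters was frequent. The clusters of a sample come from 1 library and are not independent replicates. No gene and cluster pair passed the adjusted threshold of edgeR, whether a member or any other of the 130109 pairs (0%). DESeq2 called 39 pairs (0.0507% of those it gave an adjusted p). It called none of the 75 member pairs with an adjusted p and gave none to the other 39, *Cldn15* in cluster 7 among them.

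*Cldn3* reached an unadjusted p under 0.05 in 9 clusters, *Cldn15* in 6 and *Cldn7* in 1, each lower in SCM, where 4.55% of all pairs did so. No member did so with a higher level in SCM, against 1.2% of all pairs. In the fetal-like cluster 7, *Cldn15* was at 79.7, 71.0 and 98.6 CPM in QCM and at 26.0, 32.9 and 47.5 in SCM, the last values resting on 4, 112 and 101 UMIs. The SCM samples lay below the QCM samples with a clear gap, and the log2 ratio of -1.27 ± 0.27 (SE; edgeR adjusted p = 0.339) was the lowest of *Cldn15* in any cluster. Of all genes tested in cluster 7, 8.52% were lower in SCM at an unadjusted p under 0.05 in edgeR. There, 6.16% had all SCM samples below all QCM samples. *Cldn3* in cluster 7 was at 331, 262 and 233 in QCM and at 176, 155 and 177 in SCM (log2 ratio -0.85 ± 0.26, SE; edgeR adjusted p = 0.339). In cluster 1, *Cldn3* was at 363, 249 and 220 in QCM and at 136, 103 and 163 in SCM, and its log2 ratio was -1.36 ± 0.38 (SE; edgeR adjusted p = 0.674).

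The media did not overlap for *Cldn3* in 9 clusters and for *Cldn15* in 9 clusters, with SCM below each time. Over all pairs tested, 4.65% had SCM below QCM in this way and 7.54% above. By cluster, the share below was 3.31% to 6.16% in clusters 0 to 8 and 6.25% to 8.16% in clusters 9 to 12. *Cldn4* had SCM above QCM without overlap in clusters 5 and 10, and in cluster 11, where its counts were too low for the test. *Ocln* had SCM above in clusters 3 and 11, *Tjp1* and *Cgn* in cluster 12, and *Tjp3* in cluster 1. Of all genes tested, 5.65%, 7.43% and 5.12% had SCM above in clusters 1, 3 and 5, and 19.2%, 13.3% and 13.0% in clusters 10, 11 and 12, where SCM had 2 samples. Without a filter on low counts, edgeR called *Cldn3* in clusters 0, 1, 2 and 3 and *Cldn15* in cluster 7 as lower in SCM. These were 5 of 117 member pairs, against 0.892% of all 318724 pairs called lower under that setting. The 2 shares are not alike, since 114 member pairs but only 130109 pairs in all pass the filter. That setting called 3135 pairs in all, against 0 with the filter.

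**Figure D5:**
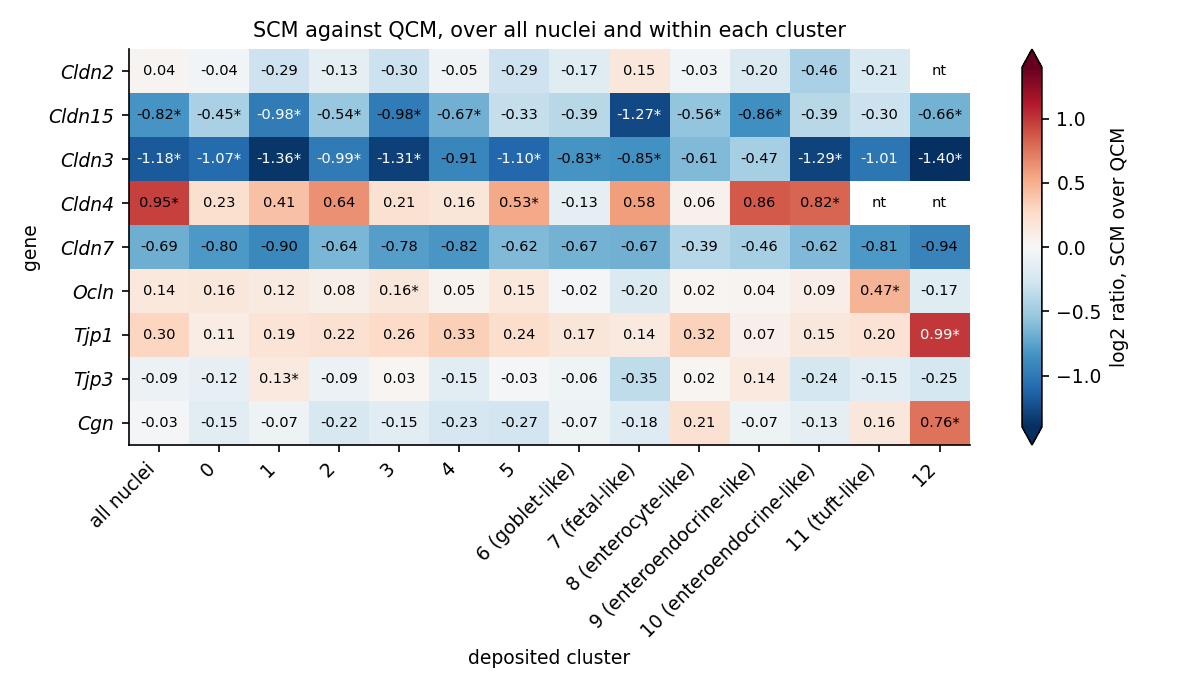
Log2 ratio of SCM over QCM for the 9 genes (rows), over all nuclei and within 13 clusters (columns); an asterisk marks a gene whose samples did not overlap between media, and nt marks a gene not tested in that cluster. *Cldn3*, *Cldn15* and *Cldn7* are below 0 in each cluster, and *Tjp1* is above 0 in each.

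The remaining genes of the junction were counted from fixed lists. Of 54 further tight junction genes, 49 were in the matrices and 42 passed the filter on low counts. None was called by edgeR, and 17 had a lower and 25 a higher estimate in SCM. The median log2 ratio was 0.16, against -0.01 over all genes tested and 0.13 over genes spanning more than 50 kb. The part of gene length in the lists was not tested. Among the 6 other claudins tested, 5 were lower and 1 higher, with a median of -0.27. The best measured of them, *Cldn12* and *Cldn23*, were at 19.5 ± 2.59 and 4.97 ± 0.887 CPM in QCM and at 20.8 ± 3.42 and 4.73 ± 0.536 in SCM (SD, n = 3). Of 12 other membrane proteins, 7 were higher and 5 lower, led in level by *Cxadr*, the coxsackie and adenovirus receptor (log2 ratio 0.26 ± 0.17, SE), and *Igsf5* (0.30 ± 0.24, SE).

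Of 24 scaffold and polarity genes, 17 were higher and 7 lower, with a median of 0.18. Over all genes tested that span more than 50 kb, 32.8% were lower and the median was 0.13. The spans of the listed genes were not compared. *Magi1* and *Pard3*, which encode PDZ-domain scaffolds, had log2 ratios of 0.21 ± 0.27 and 0.22 ± 0.24 (SE). *Cgnl1*, which encodes the cingulin paralogue paracingulin, was singled out after its values were seen. It was at 6.58, 6.92 and 9.28 CPM in QCM and at 24.6, 32.3 and 15.9 in SCM, so that all SCM samples lay above all QCM samples. Its log2 ratio was 1.51 ± 0.29 (SE; edgeR adjusted p = 0.927), and it was the 1 gene of these lists that DESeq2 called (adjusted p = 0.00876).

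Of 12 adherens junction genes, 8 were higher and 4 lower (median 0.11), and of 8 desmosome genes, 5 were higher and 3 lower (median 0.16), again with 0 called by edgeR. *Epcam*, an adhesion protein that binds claudins, was at 914 ± 315 CPM in QCM and 748 ± 36.1 in SCM (SD, n = 3). *Cdh1*, which encodes E-cadherin, was at 401 ± 81.3 and 491 ± 93.2. The desmosome genes *Dsg2* and *Dsp* had log2 ratios of 0.29 ± 0.22 and 0.18 ± 0.24 (SE). At an unadjusted p under 0.05, edgeR had 3 of the 42 further tight junction genes, 0 of the adherens junction genes and 1 of the desmosome genes, all higher in SCM, against 1.46% of all genes. All SCM samples lay above all QCM samples for 7, 1 and 1 genes of these lists, against 4.99% of all genes, and below for 0.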

How the data were processed

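Nuclei of the 6 samples were profiled on droplets with 3′ chemistry. The deposited count matrices hold UMI counts per gene and nucleus, which the authors made with Cell Ranger (version 2.1.1 in the submitters' processing notes) on mm10 with Ensembl annotation. The authors removed nuclei with an outlying high mitochondrial share, low read total or low number of features. Their stated filter had no upper limit on reads or features. Whether intronic reads were counted was not given in the sources used here. Cluster numbers were taken from the deposited annotation of nuclei, and the deposited log-scale matrix and the other annotation columns were not used.

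Counts were summed per sample, and per sample and cluster with at least 10 nuclei, and 13 clusters with at least 2 such samples per medium were tested. edgeR 4.0.16 (TMM scaling, filterByExpr with a minimum count of 10, quasi-likelihood test, medium as the only term, R 4.3.3) was the main test, with Benjamini-Hochberg adjustment over all genes and a threshold of 0.05. DESeq2 1.42.0 and limma 3.58.1 served for alternatives, and all were tested on simulated data. Levels are counts per 1000000 UMIs (CPM) without TMM scaling, and overlap between media was judged on CPM. Exact permutation tests used scipy 1.17.1. Of 31319 Ensembl identifiers, 31244 were matched to a symbol, with GENCODE M21 on GRCm38 for coordinates. Promoters of all 9 genes were found in the RefSeq table.

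The genes, lists and tests were chosen with earlier results of these data known. The genes named outside the 9 were the 2 with the highest mean level in each junction list, any that edgeR called, and for each of the 9 the 2 most similar genes over clusters with a mean of at least 10 CPM. One gene that this rule names is not reported here, and *Cgnl1* was named outside the rule. A cluster was called after a cell type when at least 3 of its markers were at least 2-fold higher than in other nuclei at 5 CPM or more. Its 10 leading genes also had to hold no marker of a second type. The types were stem, enterocyte, goblet, Paneth, enteroendocrine, tuft and fetal. The mesenchymal list was not among them, and *Fn1* of that list was among the leading genes of cluster 7. No doublet caller was run and nuclei were kept as deposited. Same-numbered samples had correlations of deviations of 0.36, 0.46 and -0.09, and samples of different numbers -0.46 to 0.16. Replicates 1 and 2 thus varied together by number, but replicate 3 did not. The numbers were not treated as pairs in the main test, and the replicate block was run as an alternative. Replicates, low-count filter, scaling, test, cluster weights, minimum nuclei and the 6% of nuclei with the most UMIs were varied. Leaving out shared barcodes, clusters 7 and 14 or ribosomal protein genes, and fitting their share as a covariate, were alternatives chosen after seeing the data.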

Additional observations from a re-analysis of the deposited data

How the results depend on the processing

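Over whole samples, 19 alternatives were run, and edgeR and limma called 0 genes in each of theirs while DESeq2 called 21. None called a member. *Cldn3* and *Cldn15* were lower in SCM in 19 of 19, with log2 ratios of -1.48 to -0.52 and -0.99 to -0.53, and *Cldn4* (0.057 to 1.54), *Ocln* (0.05 to 0.30) and *Tjp1* (0.07 to 0.44) were higher in 19 of 19. Leaving out 1 sample at a time gave -1.48 to -0.70 for *Cldn3*, -0.99 to -0.62 for *Cldn15*, 0.63 to 1.25 for *Cldn4*, -1.005 to -0.21 for *Cldn7*, -0.26 to 0.52 for *Cldn2*, -0.185 to 0.0382 for *Tjp3* and -0.095 to 0.045 for *Cgn*, so that *Cldn2*, *Tjp3* and *Cgn* changed sign. *Cldn2* also changed sign without the 6% of nuclei with the most UMIs (-0.23), without Rpl and Rps genes (-0.0044), without the nuclei of cluster 7 (-0.0288) or 14 (-0.105) and without those of both (-0.184). Sign changes came when the Rpl and Rps share was a covariate for *Cldn7* (0.20), *Tjp3* (0.0032) and *Cgn* (0.0665), with library size alone for *Tjp3* (0.0807) and *Cgn* (0.135), in replicates 2 and 3 alone for *Tjp3* (0.0703) and *Cgn* (0.0179), and with clusters weighted equally for *Tjp3* (0.0131). Scaling by library size moved the median of all genes from -0.01 to 0.14. The cause of these changes was not tested.

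Within clusters, edgeR called 0 pairs, DESeq2 39, library size alone 5, no filter on low counts 3135 (5 of them with members), the fit with the replicate block 248, and leaving out 1 sample 0 to 32, the 32 without QCM replicate 2. The replicate block called no member within clusters or over whole samples, where its log2 ratio was -1.11 for *Cldn3*, -0.84 for *Cldn15* and 1.02 for *Cldn4*. Not every sample correlated best with its own number. In cluster 7, leaving out 1 sample gave -0.23 to 1.12 for *Cldn2* and -0.17 to 0.31 for *Tjp1*. *Tjp1* was higher in all 13 clusters as reported, but in 12 with the block and in 10 of 13 in replicates 2 and 3 alone. The highest cluster was the same in 10 of 10 alternatives for *Cldn4*, *Cldn7*, *Tjp1* and *Cgn*, and in 2 of 10 for *Tjp3*. With counts pooled over samples, the log2 level over the median of clusters was 0.55 for *Cldn7* in cluster 1 and 0.89 for *Tjp1* in cluster 7. Of the junction lists, DESeq2 called 1 gene.

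With 430 nuclei in SCM replicate 1, levels in small clusters of that sample rest on few UMIs.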
